A study of Mus musculus with 33 samples.

Results

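Endothelial cells of mouse long bones were compared between irradiated and untreated animals, to find which genes of bone vessels differ after irradiation. Irradiated bone EC (3 libraries) were GFP+ cells sorted from whole femur and tibia of C57BL/6 mice of 8 to 12 weeks that had received 9 Gy, and bone EC (3 libraries) were the same GFP+ cells of mice given no treatment. Mice of both groups carried Cdh5-mTnG, so the reporter is shared and does not distinguish them. Cdh5 encodes VE-cadherin, the adhesion protein of endothelial junctions. The labels do not give the time between irradiation and sorting, nor whether the 3 libraries of a group came from separate animals, so p-values measure the spread between these libraries, which may be technical. The 6 libraries belong to a series of 33 in 11 groups and share a table with whole bone marrow cells (BMC), which are quoted where they help to place a gene. A gene was tested if 3 or more of the 6 libraries listed it at 1 FPKM or above, which 13044 of the 38899 listed genes met. FPKM is the number of fragments per kilobase of transcript, relative to the fragments of the library. Values of a group are given in the order of libraries 1, 2 and 3.

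The vessels of bone marrow are mostly sinusoids, wide and leaky channels through which blood cells leave the marrow, fed by a smaller number of arterial branches. Ionising radiation breaks DNA and activates p53, a transcription factor whose targets stop the cell cycle or trigger cell death, and it empties the marrow of its dividing blood cells. Endothelial cells also respond to inflammatory cytokines: interferons act through JAK kinases and STAT transcription factors to induce antiviral proteins, immunity-related GTPases, antigen presentation and chemokines that attract lymphocytes. These programmes, and those of vessel growth, adhesion and clotting, order the results that follow.

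The libraries held 3.15 to 3.69 M (mega) reads in irradiated bone EC and 2.72 to 3.26 M in bone EC, counted back from the steps in the FPKM values. From 12335 to 12673 genes reached 1 FPKM in the irradiated libraries, against 12785 to 12878 in bone EC. The first principal component of the 6 libraries carried 70.3% of the variance and separated the groups. The second carried 11.5% and set the libraries numbered 2 of both groups apart from the others. Those 2 libraries also carried skeletal muscle transcripts, which made up 2.95% of the summed FPKM in irradiated library 2 and 0.671% in bone EC library 2. In the other libraries muscle transcripts were at most 0.135%.

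Of the 13044 genes, 5463 (41.9%) differed at an adjusted p below 0.05 (limma on log2(FPKM + 1), Benjamini-Hochberg adjustment, two-sided). Of all genes tested, 2938 (22.5%) rose and 2525 (19.4%) fell in irradiated bone EC. The 3 irradiated values did not overlap the 3 of bone EC for 7067 genes (54.2%). Without the libraries numbered 2 of both groups, 2903 genes were called, 1374 higher and 1529 lower. Of these, 2811 had been called with all 6 libraries. Large decreases were more frequent than large increases: 171 genes fell and 36 rose by more than 8-fold on the scale of FPKM + 1. Folds given for single genes are ratios of mean FPKM, so genes of low level can exceed 8-fold without being counted here. With values rescaled to TPM the share of calls that were higher was 67.2%, against 53.8% as deposited, and the median log2 difference of all genes was 0.29, against 0.06 as deposited.

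The content of the sort differed between the groups, and this touches every level that follows. The 20 pan-endothelial genes, which mark vessel cells of any kind, summed to 1.67%, 2.11% and 2.36% of all FPKM in the irradiated libraries, against 0.521%, 0.549% and 0.656% in bone EC. Genes of late neutrophil granules, among them S100a8 and S100a9, summed to 1.13%, 0.336% and 0.288% of FPKM in irradiated bone EC, against 11.2%, 10.2% and 10.4% in bone EC. Erythroid genes, chiefly the haemoglobins, summed to 0.3%, 0.146% and 0.18% in irradiated bone EC, against 10.4%, 9.88% and 9.36% in bone EC. No library of a group overlapped the other group in any of these 3 sums. In such bulk samples fewer cells of a type and less RNA per cell cannot be told apart. BMC means are quoted below beside some of the genes that fell and not beside genes that rose. The part of blood cell RNA in those decreases was not tested.

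**Figure D1:**
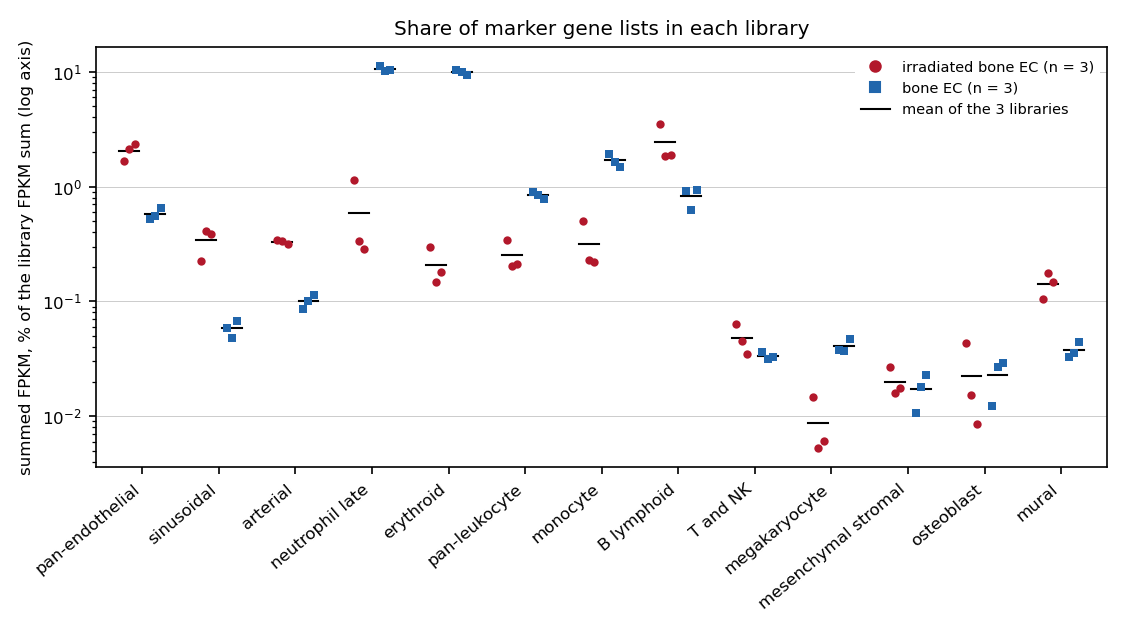
Summed FPKM of each marker list as a percentage of all FPKM in a library (logarithmic axis), with irradiated bone EC as circles on the left of each pair and bone EC as squares on the right; each point is 1 library and each bar the mean of 3. The pan-endothelial list averages 2.04% in irradiated bone EC and 0.575% in bone EC, and the late neutrophil list 0.586% and 10.6%.

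To set genes against the endothelial content itself, each library was also divided by a factor from the mean log2(FPKM + 1) of its pan-endothelial genes (pan-endothelial scaling, chosen with earlier results of these data known). This moved the median difference of all genes to -0.97 on the log2 scale. The share of genes called higher was then 2.91% (380 genes) and the share called lower 71.5% (9322 genes). Of the 2938 genes that rose as deposited, 380 were higher after scaling too, 1979 were no longer called and 579 were called lower. For most groups of genes below, both medians are given. They are to be read beside the medians of all genes, 0.06 as deposited and -0.97 scaled. Counts of calls are to be read beside the shares of all genes. These were 22.5% higher and 19.4% lower as deposited, and 2.91% higher and 71.5% lower after scaling. A rise called as deposited but not after scaling was not shown to exceed the mean rise of the pan-endothelial genes. The pan-endothelial genes themselves differed by 0.26 to 2.1 on the log2 scale. The lists of junctions, VEGF and angiopoietin genes, endothelial transcription factors, BMP and TGF-beta, leukocyte adhesion, fatty acid uptake, and tone and haemostasis share members with the pan-endothelial list. Scaled values of those members are partly set by the scaling itself. Which of the scales describes a vessel cell was not tested.

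**Figure D2:**
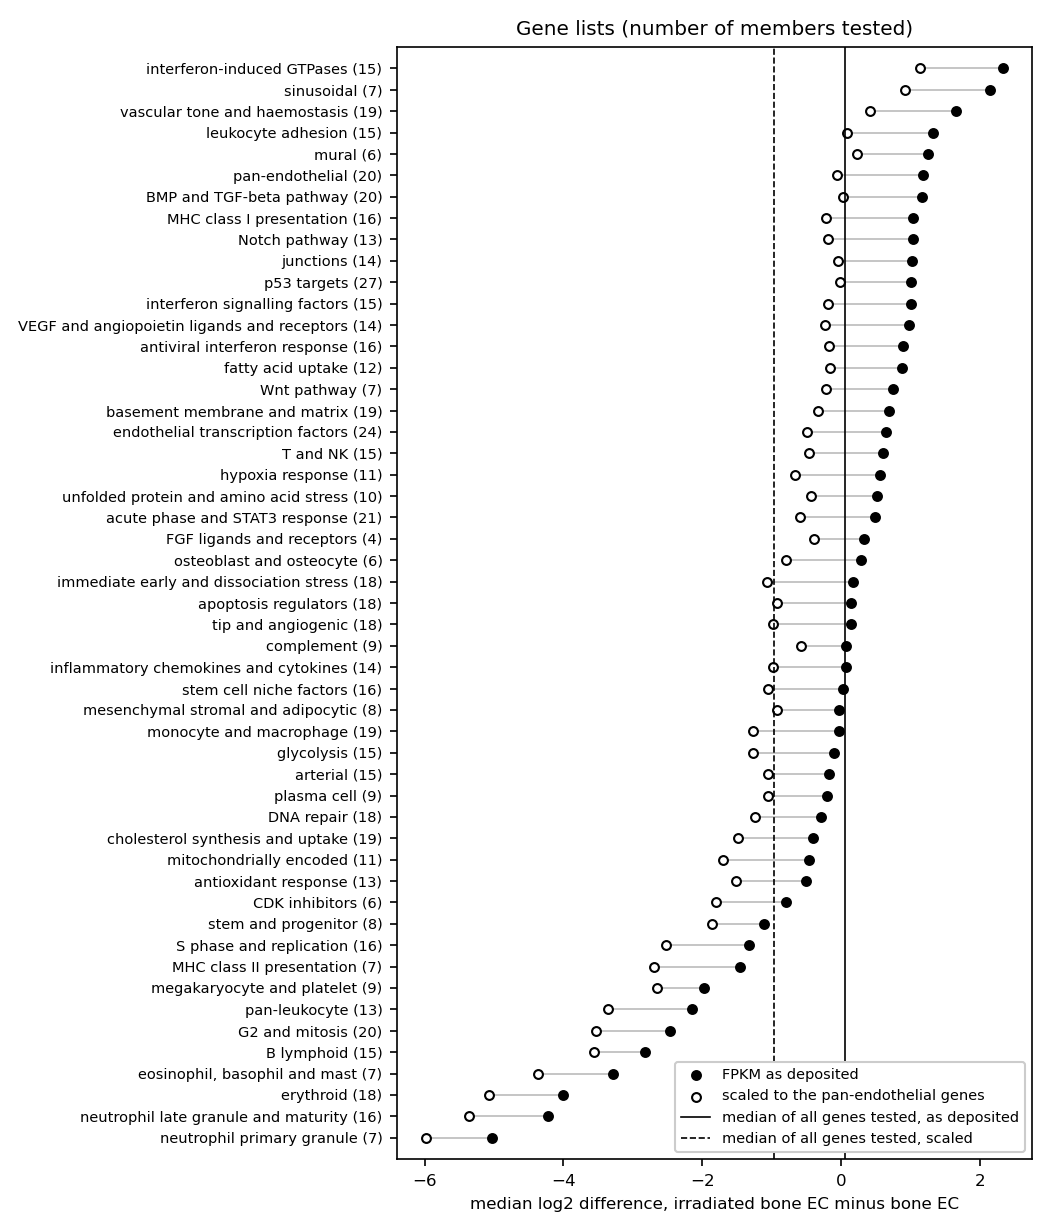
Median log2 difference, irradiated bone EC minus bone EC, over the tested members of each gene list drawn. Filled points show values as deposited and open points values after pan-endothelial scaling. Vertical lines mark the median of all tested genes (solid, 0.06 as deposited, and dashed, -0.97 scaled). The lists with the fewest tested members, those of CXCR3 ligands, sex-linked genes and chondrocytes, are not drawn. Of the lists drawn, the interferon-induced GTPases and sinusoidal genes lie farthest to the right on both scales, and the neutrophil and erythroid lists farthest to the left.

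The largest rise belonged to Fgf23, a hormone that bone cells release to lower blood phosphate through FGF receptors and the co-receptor Klotho. It was at 246, 268 and 273 FPKM in irradiated bone EC, against 4.97, 3.6 and 7.29 FPKM in bone EC (log2 difference 5.43, SE 0.22, adjusted p = 0.00013; 4.27 after pan-endothelial scaling). The 3 irradiated libraries lay close together and far above all of bone EC. Osteocytes are the main bone source of the hormone, and the 11 genes of the osteoblast and osteocyte list summed to 0.0434%, 0.0152% and 0.00861% of FPKM in irradiated bone EC, against 0.0122%, 0.0269% and 0.0291% in bone EC. Irradiated library 1 was the highest of all and irradiated library 3 the lowest, so the groups overlapped. Of its 6 tested members 2 fell, while Bglap (57.3, 5.02 and 2.52 FPKM in irradiated bone EC, against 0.885, 1.06 and 4.91 FPKM in bone EC) did not pass. Of the osteocyte genes Dmp1 was at 2.88, 0.675 and 0.094 FPKM in irradiated bone EC, against 0.198, 0.118 and 0 FPKM in bone EC, and Phex was at most 0.395 FPKM. Mepe was at 0.305 FPKM in irradiated library 1 and listed at 0 in the other 5, and Sost was listed at 0 in all 6. The part of these cells in the rise of Fgf23 was not tested. Other members of the FGF list moved little: Fgf23 was called among 4 tested members of 12, whose median was 0.32 (-0.40 scaled). Fgfr1, a receptor of the hormone, was at 2.12, 2.68 and 2.4 FPKM in irradiated bone EC, against 1.18, 2.13 and 1.76 FPKM in bone EC, and did not pass the test. Kl, which encodes Klotho, was at 0 in the irradiated libraries and at most 0.0539 FPKM in bone EC.

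The next largest rises came from genes of several kinds. Tmem252, which encodes a transmembrane protein (chromosome 19, 24674008 to 24682233, plus strand, GRCm38), was at 53.8, 31.4 and 26.9 FPKM in irradiated bone EC, against 0.555, 0.531 and 1.46 FPKM in bone EC, 44.1-fold higher (log2 difference 4.35, SE 0.30, adjusted p = 0.00023). All 3 irradiated values were above all of bone EC, with library 1 the highest. Serpina3f and Serpina3g, serine protease inhibitors of a clustered family, rose 18.6-fold and 11.9-fold, with reads that close relatives could share. Tgfa, a ligand of the EGF receptor, rose 19-fold, Car4, a membrane carbonic anhydrase of capillaries, 16.1-fold, and Tnfrsf9, the costimulatory receptor 4-1BB, 21.4-fold. Madcam1, an adhesion molecule by which lymphocytes home to gut vessels, was at 45.3, 27.8 and 25.8 FPKM in irradiated bone EC, against 1.54, 0.921 and 3.69 FPKM in bone EC (log2 difference 3.54, SE 0.36, adjusted p = 0.00047). Its groups did not overlap.

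Some of the top rises are genes better known from macrophages. Ccl8, a chemokine for monocytes and lymphocytes, was at 133, 40.7 and 37.6 FPKM in irradiated bone EC, against 2.67, 1.28 and 3.78 FPKM in bone EC (log2 difference 4.13, SE 0.51, adjusted p = 0.00087). Irradiated library 1 was far above the other 2, which were still far above all of bone EC. Ccl12 rose 20.2-fold with the same library on top, and Marco, a scavenger receptor, 26.6-fold. Over the whole monocyte and macrophage list, 6 of 19 members rose and 8 fell (median -0.04, scaled -1.27), and its summed FPKM was 0.219% to 0.498% in irradiated bone EC, against 1.49% to 1.93% in bone EC. Members that rose included Mertk and Axl, receptors for the uptake of dead cells, Spic, a transcription factor of iron-recycling macrophages, and Cd5l, with differences of 1.80, 0.99, 1.07 and 1.77. Members that fell included Csf1r, Ccr2 and Lyz2, with differences of -1.42, -2.28 and -3.74. The part of macrophage RNA in the rises of Ccl8, Ccl12 and Marco was not tested.

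The other genes among the 20 largest rises were Iigp1, Cxcl9, Gbp4, Gbp6 and Tgtp1, described with the interferon response, Clca1, Oit3, Slc10a6 and the row named mmu-mir-6381. Clca1, of a family of channel regulators, rose 10.3-fold, Oit3, a gene of liver sinusoids, 9.47-fold, and Slc10a6, a steroid sulphate carrier, 16.5-fold. Clca1 is part of a cluster of near-identical relatives whose reads may be shared. The mmu-mir-6381 row was at 103, 261 and 122 FPKM in irradiated bone EC, against 15.7, 7.52 and 12.7 FPKM in bone EC. Its locus (chromosome 3, 142623860 to 142623946, minus strand, GRCm38) lies inside the interferon-induced gene Gbp2, which runs on the plus strand, and outside its exons. The kit does not mark strand, so its reads and those of Gbp2 pre-mRNA cannot be told apart.

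**Figure D3:**
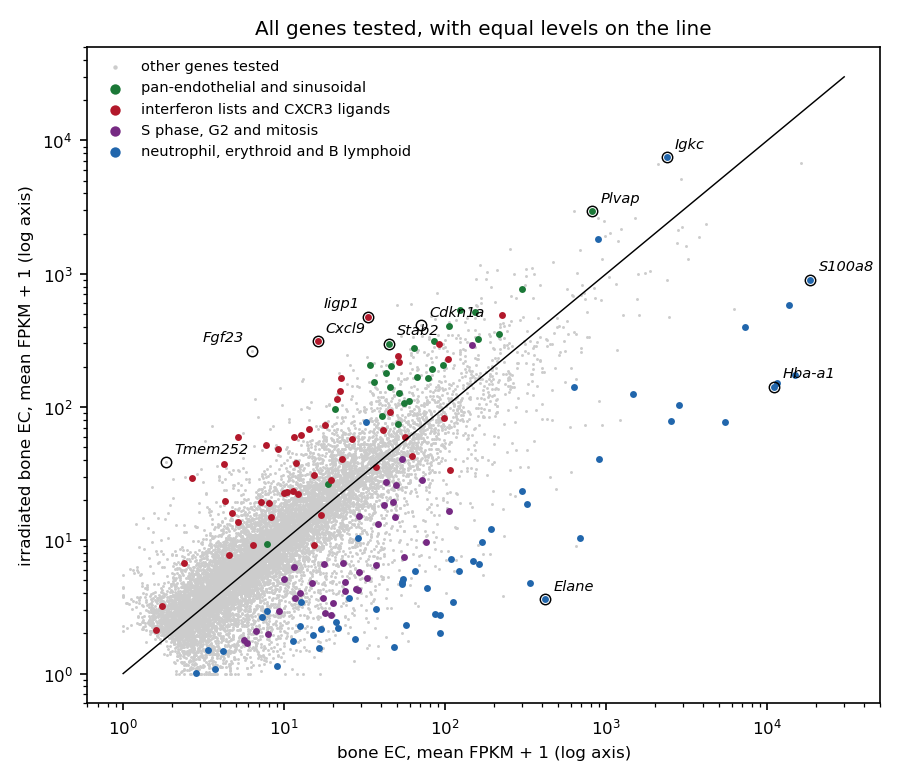
Mean FPKM + 1 of each tested gene in irradiated bone EC (vertical, logarithmic) against bone EC (horizontal, logarithmic), with the members of selected lists coloured and the labelled genes ringed. Fgf23, Tmem252, Cxcl9 and Iigp1 lie above the cloud, and Elane and Hba-a1 far below it.

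Many genes induced by interferon rose, among them the guanylate-binding proteins and immunity-related GTPases that attack microbes inside cells. Of these GTPases, 15 of 15 rose (median 2.33, against 0.06 for all genes), and 13 were still called higher after pan-endothelial scaling (median 1.13, against -0.97 for all genes). Iigp1 was at 362, 570 and 492 FPKM in irradiated bone EC, against 28.5, 26.9 and 40.9 FPKM in bone EC (log2 difference 3.85, SE 0.23, adjusted p = 0.00016; 2.62 scaled). Gbp4 was at 36.5, 92.1 and 48 FPKM in irradiated bone EC, against 5, 3.31 and 4.25 FPKM in bone EC (log2 difference 3.43, SE 0.33, adjusted p = 0.00041; 2.30 scaled). In both genes irradiated library 2 was the highest and the groups lay far apart. The other members ranged down to Gbp8, with a difference of 1.56. Reads of the paralogs Tgtp1 and Tgtp2 cannot be assigned with certainty. The same holds for the overlapping Igtp and Irgm2, and for the overlapping Gbp4, Gbp8 and Gbp9.

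The ligands of CXCR3, the receptor by which activated T and NK cells are drawn into tissue, rose too. Cxcl9 (chromosome 5, 92321347 to 92328079, minus strand, GRCm38) was at 277, 378 and 282 FPKM in irradiated bone EC, against 10.6, 11.7 and 22.9 FPKM in bone EC (log2 difference 4.35, SE 0.29, adjusted p = 0.0002; 3.14 scaled). Cxcl10 was at 138, 161 and 94.4 FPKM in irradiated bone EC, against 25, 17.4 and 21.6 FPKM in bone EC (log2 difference 2.55, SE 0.23, adjusted p = 0.00034). The lowest irradiated value of either gene was several times the highest of bone EC. Both tested ligands rose (median 3.45, scaled 2.23), while the remaining ligand, Cxcl11, was at most 0.491 FPKM in irradiated bone EC and listed at 0 in bone EC.

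Most of the classical antiviral genes rose as deposited. Of 16 tested members, 13 rose and 2 fell (median 0.89), and after scaling 1 was higher and 4 were lower (median -0.18). Without the libraries numbered 2 of both groups, 8 rose. Ifit3, which binds foreign RNA with its relatives, was at 65.4, 74.4 and 62.7 FPKM in irradiated bone EC, against 12.8, 9.93 and 16.9 FPKM in bone EC (log2 difference 2.29, SE 0.20, adjusted p = 0.0003). The groups did not overlap. Rsad2, the antiviral enzyme viperin, went the other way, with 34.3, 35.5 and 28.8 FPKM in irradiated bone EC, against 125, 103 and 90.7 FPKM in bone EC (log2 difference -1.66, SE 0.16, adjusted p = 0.00044), a call that was lost when all 15 libraries of the table were fitted together. Isg15, a ubiquitin-like protein that type I interferon induces strongly in most cells, was at 109, 69 and 67.6 FPKM in irradiated bone EC, against 103, 94.3 and 96.2 FPKM in bone EC, and did not pass the test. Without irradiated library 1, the highest of its group, it was called lower (-0.51, adjusted p = 0.013).

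Interferon signalling genes rose in 10 of 15 tested members and fell in 1 (median 1.0; scaled -0.19, with 2 higher and 5 lower). Cd274, the T cell inhibitor PD-L1, rose 4.06-fold, and Jak1 rose with a difference of 1.65. The interferon receptor genes Ifnar1, Ifnar2 and Ifngr2 differed by -0.12, 0.09 and -0.08 and did not pass, while Ifngr1 rose by 1.14. Ifng itself was at 1.27, 1.03 and 1.07 FPKM in irradiated bone EC, against 0.679, 0 and 1.14 FPKM in bone EC and did not pass, and Ifnb1 was listed at 0 in all 6 libraries. Of the T and NK list 6 of 15 tested members rose and 3 fell (median 0.60, scaled -0.46). Its summed FPKM was 0.0348% to 0.0631% in irradiated bone EC, against 0.0313% to 0.0359% in bone EC, and its part in the interferon genes was not tested. Among the 6 were Lck and Il2rb, a kinase and a cytokine receptor of T and NK cells. Of the list 3 rose without bone EC library 2, 3 without bone EC library 3 and 1 without the libraries numbered 2 of both groups.

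**Figure D4:**
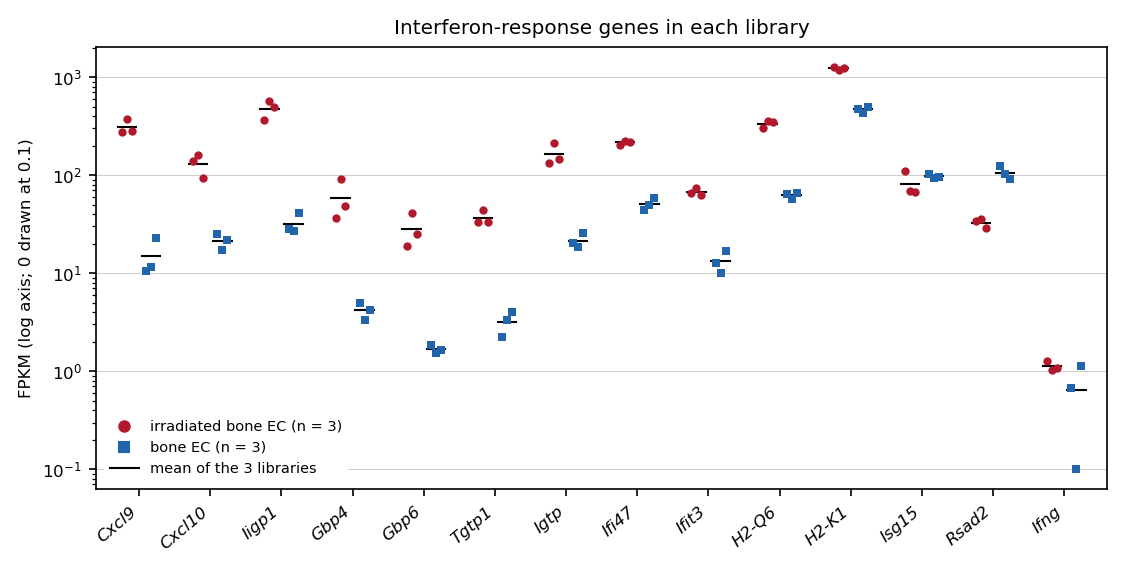
FPKM per library (logarithmic axis; 0 drawn at 0.1) of genes of the interferon response, with irradiated bone EC as circles on the left of each pair, bone EC as squares on the right and bars at group means. Groups are apart for Cxcl9, Cxcl10, the GTPases, Ifit3, H2-Q6 and H2-K1, overlap for Isg15 and Ifng, and are reversed for Rsad2.

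Antigen presentation differed by class. For class I, which displays peptides from inside any cell, 12 of 16 members rose (median 1.03), whereas after scaling 3 were higher, H2-Q6, H2-Q7 and Tap1, and 6 were lower (median -0.22). Without the libraries numbered 2 of both groups 6 of the 16 rose. H2-Q6 was at 303, 357 and 346 FPKM in irradiated bone EC, against 64.1, 56.5 and 66.4 FPKM in bone EC (log2 difference 2.41, SE 0.14, adjusted p = 0.00016), with reads that other H2-Q genes may share. H2-K1 was at 1264, 1192 and 1226 FPKM in irradiated bone EC, against 473, 432 and 497 FPKM in bone EC (log2 difference 1.39, SE 0.16, adjusted p = 0.00063; 0.15 scaled). Neither gene overlapped between groups. For class II, which professional antigen-presenting cells use, 5 of 7 members fell (median -1.46, scaled -2.70), among them Cd74 and H2-Aa with differences of -1.46 and -1.88. Without the libraries numbered 2 the 5 calls were lost. Ciita, the regulator of class II genes, was at 3.71, 6.62 and 3.26 FPKM in irradiated bone EC, against 5.83, 5.6 and 4.25 FPKM in bone EC, and did not pass. Class II genes fell together with the pan-leukocyte genes, and that list's part in them was not tested.

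The promoters of these genes were searched for the core of the interferon-stimulated response element, GAAANNGAA on either strand, to which interferon factors bind. The windows were RefSeq promoters of GRCm38.p6, from 250 bases before to 50 after each start. Of 11409 promoters of 8949 tested genes, 7.5% held the core. Among promoters of genes that rose the share was 7.68%, and among those of genes that fell 8%. For called-higher members of the interferon lists 50% held it, 23 of 46 promoters, with a promoter found for 41 of 52 such genes. The shares by list were 81.8% for the GTPases (9 of 11 promoters), 63.6% for the antiviral genes, 27.3% for the signalling genes and 18.2% for class I. For STAT dimer sites, TTCNNNGAA, the share was 21.7% in the interferon lists and 7.02% of all promoters. A match is a description of these letters and not a site in use. List members were chosen as genes of the interferon response, and those not called were not counted apart. The shares of the interferon lists therefore describe the lists and not the change after irradiation.

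Windows around the match of 6 of the genes that rose are shown because they carry the shared motif, with the core in capitals (in Gbp7 it is on the other strand). Each reads in the direction of its gene, GRCm38.p6, and does not overlap an annotated exon.
Cxcl9, chr5:92328216-92328284, minus strand, 175 bases before the start: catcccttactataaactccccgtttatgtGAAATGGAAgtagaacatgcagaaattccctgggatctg
Cxcl10, chr5:92349064-92349132, minus strand, 213 bases before the start: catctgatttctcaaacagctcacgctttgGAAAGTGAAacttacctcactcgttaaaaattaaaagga
Tgtp1, chr11:48992285-48992353, minus strand, 77 bases before the start: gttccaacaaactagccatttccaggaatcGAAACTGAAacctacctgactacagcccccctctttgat
Tgtp2, chr11:49064244-49064312, minus strand, 70 bases before the start: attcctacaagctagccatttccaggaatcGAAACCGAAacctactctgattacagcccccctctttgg
Igtp, chr11:58199492-58199555, plus strand, 34 bases before the start: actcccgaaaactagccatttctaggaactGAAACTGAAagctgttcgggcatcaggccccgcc
Gbp7, chr3:142530254-142530322, plus strand, 52 bases before the start: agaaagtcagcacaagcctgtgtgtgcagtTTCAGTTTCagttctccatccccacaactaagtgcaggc
Tgtp1, Tgtp2 and Igtp, all immunity-related GTPase genes of chromosome 11, share most of the letters around the core.

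Targets of p53 rose in 16 of 27 tested members and fell in 2 (median 1.0, against 0.06 for all genes). After scaling 4 were higher, Cdkn1a, Phlda3, Eda2r and Zmat3, and 10 were lower (median -0.02, against -0.97 for all genes). Cdkn1a (chromosome 17, 29090976 to 29100727, plus strand, GRCm38), which encodes the cyclin-dependent kinase inhibitor that holds damaged cells in G1, was at 481, 349 and 403 FPKM in irradiated bone EC, against 75.3, 83.4 and 50.8 FPKM in bone EC (log2 difference 2.56, SE 0.22, adjusted p = 0.00031; 1.32 scaled). Phlda3, an inhibitor of AKT signalling, was at 117, 105 and 101 FPKM in irradiated bone EC, against 9.47, 17.8 and 13.4 FPKM in bone EC (log2 difference 2.94, SE 0.22, adjusted p = 0.00025). All irradiated values of both genes were several times the highest of bone EC. Eda2r, a receptor of the TNF family, was at 4.22, 5.38 and 5.51 FPKM in irradiated bone EC, against 0.186, 0.222 and 0.0468 FPKM in bone EC (log2 difference 2.39, SE 0.17, adjusted p = 0.00023). Its groups did not overlap at low levels.

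Among p53 targets that act in cell death, Bax, which opens the mitochondrial membrane, was at 250, 163 and 188 FPKM in irradiated bone EC, against 62.3, 72.6 and 63.4 FPKM in bone EC (log2 difference 1.57, SE 0.19, adjusted p = 0.00076; 0.33 scaled and not called). Bbc3, known as Puma, rose 2.4-fold. Other members that rose were Sesn2, Aen, Ccng1, Plk2 and Ei24. Mdm2, the ligase that degrades p53 and is itself a target, was at 14.8, 17.3 and 15.4 FPKM in irradiated bone EC, against 15.5, 9.35 and 9.57 FPKM in bone EC, and did not pass (adjusted p = 0.11). Its groups overlapped through bone EC library 1, and without that library it was called higher (0.68, adjusted p = 0.015). The members that fell were Btg2, an antiproliferative gene (1.75-fold), and Rrm2b, a subunit that supplies nucleotides for repair (difference -0.63). Both of these calls were lost without the libraries numbered 2 of both groups, while 13 members rose there. Among apoptosis regulators 5 of 18 rose and 3 fell (median 0.14), beside 22.5% and 19.4% of all genes. After scaling 1 was higher and 13 were lower (median -0.92), beside 2.91% and 71.5% of all genes. Casp8 and Tnfsf10, the death ligand TRAIL, rose with differences of 1.54 and 2.09, and Mcl1, which protects cells from death, fell (-0.73). Without the libraries numbered 2 the 3 decreases were lost.

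Genes of the cell cycle fell. In S phase and replication 16 of 16 members fell (median -1.33, scaled -2.53), and in G2 and mitosis 19 of 20 fell (median -2.47, scaled -3.53). Mcm5, part of the helicase that opens DNA for replication, was at 15.9, 12.7 and 13.1 FPKM in irradiated bone EC, against 48.6, 46.4 and 48.6 FPKM in bone EC (log2 difference -1.72, SE 0.13, adjusted p = 0.00025). Mki67, which coats mitotic chromosomes, was at 3.08, 1.23 and 0.901 FPKM in irradiated bone EC, against 20.1, 20.5 and 14.8 FPKM in bone EC (log2 difference -2.90, SE 0.30, adjusted p = 0.00049). Both genes lay lower in all irradiated libraries, and the groups did not overlap. The member not called was Ube2c, with 53, 812 and 4.59 FPKM in irradiated bone EC and 68, 295 and 71 FPKM in bone EC. Its highest values fell in the libraries with muscle transcripts. Cell cycle genes moved with the blood cell lists described below, and the part of those lists was not tested.

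The other inhibitors of the cell cycle were split. Of 6 tested CDK inhibitors 2 rose, Cdkn1a among them, and 3 fell (median -0.80, scaled -1.80). Cdkn1b was at 1.24, 0.546 and 0.912 FPKM in irradiated bone EC, against 5.16, 4.74 and 3.57 FPKM in bone EC, and at 29.9 FPKM in BMC (mean of 3). Cdkn2c and Cdkn2d fell with differences of -2.13 and -2.36, and Cdkn2b rose by 0.97, a call lost without irradiated library 2 (0.88, adjusted p = 0.059). Cdkn2a, a marker of senescence, was listed at 0 in all 6 libraries. DNA repair genes fell in 6 of 18 tested members (median -0.29, scaled -1.24), among them Brca1 and Fancd2, which act in repair by recombination. Chek1 and H2afx, which signal stalled replication and broken DNA, fell with differences of -1.33 and -2.35.

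The E2F motif of cell cycle promoters (TTTGGCGC or TTTCCCGC, either strand) was in 21.4% of promoters of the cell cycle genes that fell, 6 of 28, against 2.82% of all promoters. It was in 1.49% of the promoters of all genes that rose and 3.69% of those of genes that fell. The 21.4% describes genes chosen for their role in the cell cycle and not the change after irradiation. The NF-kappa B motif (GGGACTTTC or GGGAATTTC) was in 0.583% of promoters of genes that rose and 0.657% of all.

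**Figure D5:**
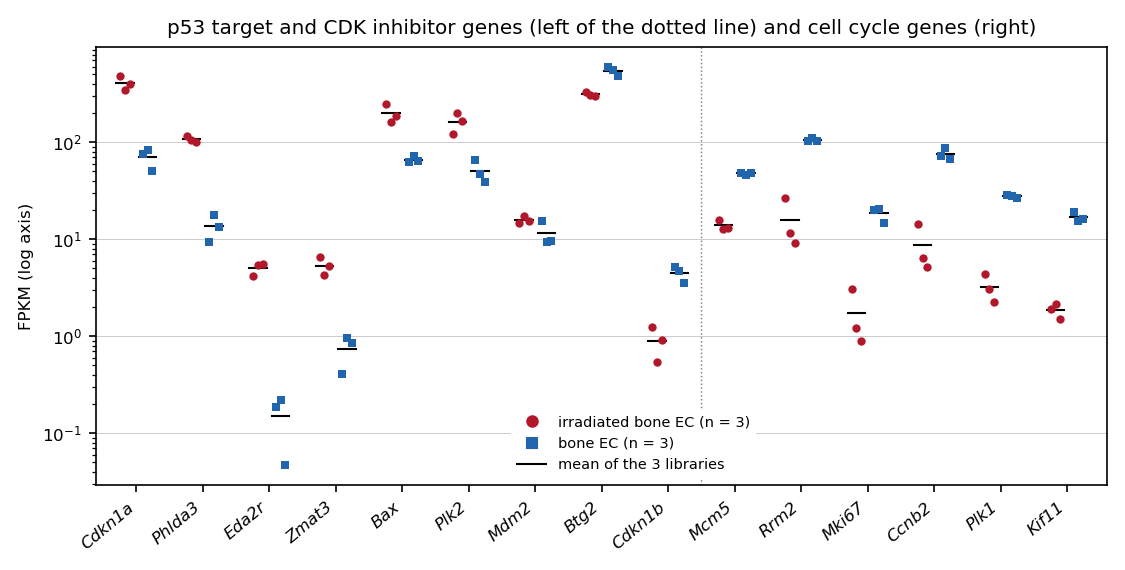
FPKM per library (logarithmic axis) of p53 targets, a further CDK inhibitor and cell cycle genes, with irradiated bone EC as circles on the left of each pair, bone EC as squares on the right and bars at group means. Cdkn1a, Phlda3, Eda2r, Zmat3, Bax and Plk2 are higher in irradiated bone EC with groups apart, Mdm2 overlaps, and Btg2, Cdkn1b and the cell cycle genes are lower.

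Among the vessel identity lists the sinusoidal genes had the highest median. Of them, 7 of 7 tested members rose on both scales (median 2.14, scaled 0.91): the scavenger receptors Stab1, Stab2 and Mrc1, the lymphatic growth factor receptor Flt4, the Fc receptor Fcgr2b, Ehd3 and Gpr182. Stab2 (chromosome 10, 86841198 to 87008025, minus strand, GRCm38), which clears hyaluronan, was at 178, 393 and 324 FPKM in irradiated bone EC, against 47.1, 38.4 and 45.3 FPKM in bone EC (log2 difference 2.68, SE 0.29, adjusted p = 0.00056; 1.44 scaled). Flt4 was at 119, 272 and 232 FPKM in irradiated bone EC, against 34.3, 25.5 and 39 FPKM in bone EC (log2 difference 2.56, SE 0.32, adjusted p = 0.00097; 1.33 scaled). Library 1 was the lowest irradiated library in both, and still above all of bone EC. Lyve1 was below the filter in both groups.

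Pan-endothelial genes rose in 18 of 20 members as deposited (median 1.18) and, being the basis of the scaling, had a scaled median of -0.06. Their rises were unequal: Kdr and Plvap differed by 1.82 and 1.85, Pecam1 and Cdh5 by 1.32 and 1.24, and Tie1 and Emcn by 1.05 and 0.90. Arterial genes were split, with 6 of 15 higher and 2 lower (median -0.17; scaled -1.06, with 1 higher and 8 lower). Edn1, which encodes the vasoconstrictor endothelin, was at 14, 9.94 and 7.53 FPKM in irradiated bone EC, against 1.28, 1.39 and 1.65 FPKM in bone EC (log2 difference 2.20, SE 0.22, adjusted p = 0.00047; 1.25 scaled), with groups apart. Ly6a, which encodes Sca1, rose 3.39-fold and Gja5, a connexin of arteries, 2.55-fold. Efnb2, which defines arterial fate, was at 3.38, 6.46 and 5.16 FPKM in irradiated bone EC, against 5.63, 5.9 and 5.29 FPKM in bone EC, and did not pass. Bmx fell (-1.86), with BMC at 19.1 FPKM, and without bone EC library 1 the members that fell were 4.

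Genes of growing vessels moved in both directions. Of the tip cell list 8 of 18 members rose and 3 fell (median 0.14; scaled -0.99, with 4 higher and 11 lower). Angpt2, which destabilises vessels by competing at the Tie2 receptor, was at 22.4, 33.9 and 25.4 FPKM in irradiated bone EC, against 2.37, 2.48 and 4.03 FPKM in bone EC (log2 difference 2.84, SE 0.22, adjusted p = 0.00026; 1.76 scaled). It overlaps Mcph1, so without strand its reads are not certain. Apln, a peptide that tip cells release, was at 42.7, 37.9 and 33.3 FPKM in irradiated bone EC, against 9.11, 10.5 and 12.8 FPKM in bone EC (log2 difference 1.73, SE 0.17, adjusted p = 0.00041; 0.55 scaled). Both genes were higher in all irradiated libraries. Adm, adrenomedullin, rose 5.59-fold, while Esm1, a classical tip cell gene, was at 15.9, 8.88 and 10.6 FPKM in irradiated bone EC, against 8.34, 13.6 and 14.5 FPKM in bone EC, and did not pass. Plaur and Cxcr4 fell, Cxcr4 with a difference of -2.97 and a BMC mean of 472 FPKM.

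Among the VEGF and angiopoietin genes 10 of 14 tested rose, receptors for the most part (median 0.97, scaled -0.24, with 2 higher and 5 lower). Of this list Flt1, Kdr, Tek and Tie1 are also pan-endothelial genes, which set the scale. The ligands Vegfa and Pgf differed by -0.65 and -0.02 and did not pass. Notch genes rose in 9 of 13 tested members and fell in 1 (median 1.03; scaled -0.19, with 1 higher and 4 lower). The ligands Jag1, Dll1 and Dll4 rose by 1.75, 1.28 and 1.02, the endothelial receptor Notch4 by 1.60 and the targets Nrarp and Hes1 by 1.52 and 1.03. Notch2 fell (-1.44), with a BMC mean of 67.3 FPKM. For Wnt, 7 of 20 members were tested. Of these, 4 receptors rose, Fzd4 by 1.74, and the transcription factor Lef1 fell by 1.06 on the log2 scale (median 0.74; scaled -0.22, with 1 higher and 2 lower). Of the list, 1 rose without the libraries numbered 2 of both groups.

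In the BMP and TGF-beta pathway 13 of 20 tested members rose (median 1.16; scaled 0.03, with 4 higher and 6 lower). The ligand Bmp2, which induces bone and, in liver endothelium, helps to set iron balance, was at 13.8, 19.5 and 18 FPKM in irradiated bone EC, against 3.54, 2.76 and 2.71 FPKM in bone EC (log2 difference 2.17, SE 0.18, adjusted p = 0.00028; 1.09 scaled). Its groups did not overlap. Bmp4 and Inhbb rose too (1.09 and 1.49), as did the co-receptors Eng and Tgfbr3 (2.09 and 1.82), Smad1 (1.31) and the targets Id1 and Id4 (1.54 and 1.84), while Bmp6 differed by 0.30 and did not pass.

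Factors by which vessels keep blood stem cells showed no common direction: 3 of 16 tested members rose and 3 fell (median 0.03, scaled -1.06). Cxcl12, the retention chemokine, was at 80.3, 79.1 and 71.9 FPKM in irradiated bone EC, against 71.3, 141 and 168 FPKM in bone EC (adjusted p = 0.14). Bone EC library 1 lay below the irradiated libraries and libraries 2 and 3 above them, and without bone EC library 1 Cxcl12 was called lower (-0.99, adjusted p = 0.0058). Kitl, stem cell factor, differed by -0.37 and did not pass. Csf1, the macrophage growth factor, was at 27.9, 39.4 and 33.2 FPKM in irradiated bone EC, against 7.43, 9.2 and 8.17 FPKM in bone EC (difference 1.89; 0.72 scaled), with groups apart. Il6, Ptn and Tnf fell, Il6 with a difference of -2.28. Of this list 5 fell without bone EC library 1, 5 rose without irradiated library 1, and 1 fell without the libraries numbered 2 of both groups.

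Adhesion molecules for leukocytes rose in 10 of 15 tested members and fell in 3 (median 1.32; scaled 0.08, with 5 higher and 5 lower). Vcam1 (chromosome 3, 116109949 to 116129688, minus strand, GRCm38), which binds integrins of lymphocytes and progenitors, was at 882, 987 and 1224 FPKM in irradiated bone EC, against 165, 166 and 210 FPKM in bone EC (log2 difference 2.51, SE 0.19, adjusted p = 0.00025; 1.26 scaled). Ackr1, a chemokine-binding receptor of venules listed as Darc, was at 1546, 1325 and 1707 FPKM in irradiated bone EC, against 172, 238 and 350 FPKM in bone EC (log2 difference 2.64, SE 0.27, adjusted p = 0.00051). Groups of both genes were apart by several fold. Selp, Icam1 and Sele, which capture rolling leukocytes, rose by 2.34, 1.93 and 1.68. Cd44 fell (-2.66), with a BMC mean of 95 FPKM. Of the 3 decreases 1 was left without bone EC library 2, without bone EC library 3 or without irradiated library 3.

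Junction genes rose in 9 of 14 tested members and fell in 1 (median 1.02, scaled -0.05, with 2 higher and 6 lower). Of this list Cdh5, Cldn5, Esam and Pecam1 are also pan-endothelial genes, which set the scale. Gja1, F11r and Tjp1 rose by 1.65, 1.59 and 1.59. Of 24 tested endothelial transcription factors 16 rose and 1 fell (median 0.65), but 9 rose without irradiated library 3. After scaling 12 were lower (median -0.49), beside 71.5% of all genes called lower (median -0.97). The largest rises were those of Nr2f2, the regulator of venous fate, and Sox7, both 1.59, and of Bcl6b (1.34). Klf2, which responds to blood flow, rose by 1.07. Erg differed by 0.26 and did not pass.

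Basement membrane and matrix genes rose in 10 of 19 members and fell in 2 (median 0.69; scaled -0.34, with 3 higher and 9 lower), and 4 rose without the libraries numbered 2 of both groups. Mmrn1, a carrier of coagulation factor V, rose 5.98-fold, Timp3, an inhibitor of matrix proteases, by 2.18 and Nid1, a linker of basement membranes, by 2.02. Col4a1 rose by 1.06, and Fn1, fibronectin, fell (-1.89) with a BMC mean of 84 FPKM.

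Anticoagulant and vasoactive genes were among those that rose beyond the pan-endothelial genes. Of 19 tested members of the tone and haemostasis list 12 rose and 2 fell (median 1.65; scaled 0.42, with 9 higher and 7 lower). Pros1, protein S, was at 152, 252 and 253 FPKM in irradiated bone EC, against 40.3, 30.2 and 47.7 FPKM in bone EC (difference 2.43; 1.20 scaled). Tfpi, the inhibitor of tissue factor, was at 531, 695 and 759 FPKM in irradiated bone EC, against 139, 140 and 219 FPKM in bone EC (difference 2.01; 0.76 scaled). Groups did not overlap in either. Thbd and Procr, which activate protein C, rose by 1.94 and 1.83 and F8, coagulation factor VIII, by 1.82. Ptgs2, inducible cyclooxygenase, fell 13.8-fold, with a BMC mean of 73.5 FPKM.

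Genes for the uptake of fatty acids rose in 9 of 12 tested members and fell in 1 (median 0.87; scaled -0.16, with 2 higher and 4 lower). Fabp4, a fatty acid carrier of capillaries, was at 8363, 4652 and 6977 FPKM in irradiated bone EC, against 1454, 2463 and 2347 FPKM in bone EC (difference 1.67). All irradiated values exceeded those of bone EC, though library 2 by the least. Cd36 and Pparg rose by 1.93 and 1.73.

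Inflammatory chemokines and cytokines were split, 4 of 14 tested members higher and 6 lower (median 0.07, scaled -0.99). Cx3cl1, a membrane-bound chemokine of endothelium, Cxcl16 and Csf1 rose, by 1.74, 0.88 and 1.89. Ccl4, Ccl3, Il1b and Cxcl2, which neutrophils and macrophages make in quantity, fell by 4.02, 3.49, 3.25 and 2.82 on the log2 scale along with Il6 and Tnf. Cxcl1 was at 49.5, 13.7 and 5.72 FPKM in irradiated bone EC, against 3.44, 5.49 and 1.16 FPKM in bone EC (adjusted p = 0.053). Irradiated library 1 was the highest and the groups did not overlap, and without irradiated library 3 the gene was called higher (2.78, adjusted p = 0.019).

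Of 21 acute phase genes and genes of the STAT3 response 9 rose and 4 fell (median 0.48; scaled -0.59, with 5 higher and 10 lower). Besides the Serpina3 genes, Il6st and Osmr, receptor subunits of the IL-6 family, rose by 2.19 and 1.92 and Lrg1, a secreted glycoprotein, by 1.58, whereas Il6ra fell (-2.42). Complement genes showed 3 of 9 higher and 2 lower (median 0.07, scaled -0.58), beside 22.5% and 19.4% of all genes. Cfb rose by 2.37 and C3, on which it acts, fell by 3.0 on the log2 scale, and without bone EC library 1 the members that fell were 4.

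Of the stress and metabolic lists, unfolded protein genes rose in 5 of 10 members (median 0.52; scaled -0.43, with 1 higher and 4 lower), and in 2 without the libraries numbered 2 of both groups. Xbp1, a factor that widens the secretory pathway, was at 840, 806 and 1071 FPKM in irradiated bone EC, against 138, 139 and 185 FPKM in bone EC (log2 difference 2.55, SE 0.19, adjusted p = 0.00025; 1.31 scaled). Its groups were apart by several fold. Immediate early genes, which tissue digestion also induces, rose in 6 of 18 and fell in 2, beside 22.5% and 19.4% of all genes. Their median was 0.17 (scaled -1.07, against -0.97 for all genes), and 3 rose without irradiated library 3. Jun rose by 1.85. Hypoxia genes rose in 7 of 11 and fell in 1 (median 0.56; scaled -0.66, with 1 higher and 6 lower).

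Among antioxidant genes 3 of 13 rose and 5 fell (median -0.51, scaled -1.52), with Sod3 and Hmox1 higher by 1.92 and 1.26 and Gpx1 lower by 2.40 on the log2 scale. Cholesterol synthesis and uptake fell in 9 of 19 tested members and rose in 1 (median -0.41, scaled -1.49), and 5 fell without the libraries numbered 2. Of 15 glycolysis genes 2 rose and 5 fell (median -0.11, scaled -1.27), beside 22.5% and 19.4% of all genes tested. Of these genes 4 rose without irradiated library 1, 1 rose when bone EC library 1 or 2 or irradiated library 2 or 3 was left out, and 3 fell without bone EC library 1, bone EC library 3 or irradiated library 3. Of 11 tested mitochondrially encoded genes 3 fell (median -0.46, scaled -1.70), beside 19.4% of all genes. These 3 calls were lost without bone EC library 2 or 3 or irradiated library 2 or 3.

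The largest decreases were those of blood cell genes. Elane, neutrophil elastase (chromosome 10, 79886247 to 79888215, plus strand, GRCm38), was at 3.34, 3.71 and 0.846 FPKM in irradiated bone EC, against 346, 440 and 464 FPKM in bone EC (log2 difference -6.95). Alas2, the haem synthesis enzyme of red cell precursors, was at 12.2, 7.62 and 8.42 FPKM in irradiated bone EC, against 914, 595 and 559 FPKM in bone EC (log2 difference -6.04, SE 0.24, adjusted p = 0.00013). Ms4a1, the B cell antigen CD20, was at 0.374, 0.604 and 0.757 FPKM in irradiated bone EC, against 66, 45.1 and 30.4 FPKM in bone EC (log2 difference -4.87, SE 0.28, adjusted p = 0.00016). No value of the irradiated libraries came near those of bone EC. The rest of the 20 largest decreases included the haemoglobins Hba-a1, Hba-a2, Hbb-bs and Hbb-bt, whose paralogs share reads, the red cell genes Car1 and Bpgm, the neutrophil genes Mpo, Ctsg, Prtn3, Camp, Retnlg, S100a9 and Ms4a3, and the B cell genes Vpreb3 and Spib.

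By list, 13 of 13 pan-leukocyte members fell (median -2.15), 7 of 7 of the neutrophil primary granules (-5.03), 16 of 16 of the late granules (-4.22) and 9 of 9 tested megakaryocyte and platelet members (-1.97). Of the eosinophil, basophil and mast cell list 6 of 7 tested fell (-3.29), and of the stem and progenitor list 4 of 8 (-1.11). Among late granule genes S100a8 was 20.5-fold lower, with irradiated library 1 the highest of its group at 1864 FPKM, against 440 and 397 FPKM in the others. Of 18 erythroid members 17 fell (median -4.0) and Epor rose. Epor, the erythropoietin receptor, was at 65.3, 75.2 and 87.2 FPKM in irradiated bone EC, against 24.2, 30.6 and 38.6 FPKM in bone EC (difference 1.28; 0.05 scaled), with groups apart.

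The lymphoid lists were not uniform. Of 15 tested B lymphoid members 13 fell and 1 rose (median -2.82), yet the summed FPKM of the list was 3.54%, 1.84% and 1.89% in irradiated bone EC, against 0.923%, 0.628% and 0.935% in bone EC. Over recovered reads, which weight long genes more, the list averaged 0.55% in irradiated bone EC and 0.327% in bone EC. The sum was carried by Igkc, the kappa light chain, at 11521, 5300 and 5627 FPKM in irradiated bone EC, against 2312, 1817 and 2989 FPKM in bone EC (log2 difference 1.59, SE 0.37, adjusted p = 0.013). Its groups did not overlap, but the call was lost without bone EC library 2 (1.41, adjusted p = 0.062). In the plasma cell list Jchain, which joins secreted antibodies, and Xbp1 rose, and 4 of the 9 members fell (median -0.21, scaled -1.05). The call of Jchain (1.63) was lost without bone EC library 1 (1.51, adjusted p = 0.053) or 2 (1.45, adjusted p = 0.057). Without bone EC library 3, irradiated library 2 or irradiated library 3, 2 members fell.

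Of the other cells that a bone digest can hold, mural cells, which wrap vessels, showed 3 of 6 tested members higher and 1 lower (median 1.25, scaled 0.22). Abcc9 and Kcnj8, which form a potassium channel, rose by 2.15 and 1.52, and Acta2, smooth muscle actin, fell by 1.13 on the log2 scale. Osteoblast genes fell in 2 of 6 tested, Runx2 and Ibsp (median 0.28, scaled -0.79). Mesenchymal stromal genes were not called in 8 tested by limma, with 1 below an unadjusted p of 0.05 and 1 called by voom (median -0.04, scaled -0.93). The chondrocyte list had 1 tested member, Comp, which was not called by limma or voom (0.20, scaled -0.44). Of 3 tested sex-linked genes 0 were called by limma, 0 had an unadjusted p below 0.05 and 0 were called by voom (median 0.23, scaled -0.45), and Xist and Ddx3y were both present in all 6 libraries.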

How the data were processed

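RNA was measured in 33 libraries of 11 groups, of which irradiated bone EC and bone EC, 3 libraries each, are compared here. The authors deposited 1 FPKM value per gene and library. The submitters' processing notes list, with no role or order, the build mm10 and the tools DESeq2 1.18.1, HTSeq 0.6.1, TopHat2 2.1.1 and bcl2fastq 2.19.1.403. Per the labels' protocols, bones were crushed and digested with collagenase IV, GFP+ cells were sorted into lysis buffer, and libraries were made with SMART-Seq v4 and Nextera XT, which do not mark strand. BMC libraries were made with another kit (TruSeq Stranded Total RNA), so their levels are quoted and not tested against EC.

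Of 38926 rows, 27 whose names had turned into dates were left out. Values were used as log2(FPKM + 1), a pseudocount of 1, which understates changes of low genes. Genes at 1 FPKM or above in 3 or more of 6 libraries entered a linear model (limma 3.58.1 in R 4.3.3; moderated with a trend, two-sided, Benjamini-Hochberg over 13044 genes), with 0.05 as the threshold. Reads were counted back from the steps of the FPKM values, whole within a tolerance of 0.005 for 31714 of 31714 genes (100%). A gene whose reads share a divisor in all 15 libraries of the table is counted too low. voom on these reads called 5529 genes (2607 higher, 2922 lower). The scripts were tested on simulated data.

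The alternatives were TPM (FPKM rescaled to a common sum), pseudocounts of 0.1 and 5, testing all genes and testing genes with a mean of 5 FPKM or above. Values were also scaled by median of ratios, to the pan-endothelial genes, to pan-endothelial and junction genes without the 3 highest, and to sums without blood genes. Further alternatives were no trend, a replicate block, all 15 libraries, voom on recovered reads and leaving out each library. Leaving out both libraries numbered 2 was added after seeing the data. The members, lists and tests were chosen with earlier results of these data known. Named genes are the 20 largest differences in each direction among genes that were called, did not overlap between groups and reached a mean of 5 FPKM in the higher group, leaving out predicted genes and segments of antibody and T cell receptor genes, then list members and the 10 largest in each direction after pan-endothelial scaling. Some genes are in more than 1 list. Of the listed symbols 35693 were found in GENCODE vM21 (GRCm38), the source of positions, which may differ from the authors' annotation. Promoters are from RefSeq (GRCm38.p6). Some genes that met the rule for named genes are not reported here.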

Additional observations from a re-analysis of the deposited data

How the results depend on the processing

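Against 5463 genes called, 2938 higher and 2525 lower, pan-endothelial scaling gave 9702 (380 and 9322), and leaving out both libraries numbered 2 gave 2903 (1374 and 1529). A mean of at least 5 FPKM left 1622 lower calls, with fewer genes tested. Scaling to pan-endothelial and junction genes without the 3 highest gave 742 higher genes, against 380. Leaving out 1 library in turn gave from 3855 to 6027 calls, from 1961 to 3188 of them higher and from 1894 to 2839 lower. The other alternatives stayed within 1.5-fold of these counts. Among calls the higher share was 67.2% with TPM, 46.2% with sums without blood genes and 48.5% with median-of-ratios scaling, against 53.8%. Taken over recovered reads instead of FPKM, which weights long genes more, the pan-endothelial share was 2.27% in irradiated bone EC and 0.815% in bone EC, the late neutrophil share 0.198% in irradiated bone EC and 3.89% in bone EC, and the erythroid share 0.1% in irradiated bone EC and 4.28% in bone EC.

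With the replicate block 4402 genes were called (2311 higher, 2091 lower). Whether replicate numbers pair the libraries was not settled. Same-number correlations of deviations from group means were -0.159, 0.264 and 0.208, and not every library correlated best with its own number. The value of the libraries numbered 2, 0.264, was the highest between any irradiated and any bone EC library.

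Of 222 named and tested genes 197 were called, and 176 of these kept their call and direction under every alternative other than pan-endothelial scaling. Leaving out 1 library cost 4 of them their call, and another alternative 20, most often leaving out both libraries numbered 2. Pan-endothelial scaling cost 41 their call with the sign kept. It turned the sign of Axl (-0.22), Bmp6 (-0.79), Col4a1 (-0.19), Cxcl16 (-0.28), Dll4 (-0.19), Emcn (-0.33), Erg (-0.84), Hes1 (-0.21), Ifnar2 (-1.13), Ifngr1 (-0.10), Klf2 (-0.17), Lck (-0.32), Mdm2 (-0.70) and Tie1 (-0.18). This follows from the subtraction of the pan-endothelial rise from each gene. Depth of about 3 M reads limits genes near 1 FPKM.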

Other observations

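Some genes outside the lists differed by as much as those within them, and were chosen here after their values were seen. Cyr61 and Ctgf, matricellular proteins that mechanical load and YAP signalling induce, were at 688, 778 and 667 FPKM and at 224, 224 and 267 FPKM in irradiated bone EC, against 85.3, 103 and 76.5 FPKM and 21.2, 36 and 38 FPKM in bone EC. Ephx1, an epoxide hydrolase, was at 175, 163 and 200 FPKM in irradiated bone EC, against 21.1, 19.2 and 22.1 FPKM in bone EC. Groups did not overlap in these 3 genes. Cyp4b1, a cytochrome P450, was at 987, 1124 and 1353 FPKM in irradiated bone EC, against 142, 160 and 190 FPKM in bone EC. Ubd, a ubiquitin-like protein that interferon gamma and TNF induce together, was at 1029, 1143 and 1020 FPKM in irradiated bone EC, against 129, 188 and 310 FPKM in bone EC. Csf2, the growth factor GM-CSF, was at 12.8, 3.88 and 7.13 FPKM in irradiated bone EC, against 0, 0.409 and 0.344 FPKM in bone EC. Among insulin-like growth factor binding proteins, Igfbp2 and Igfbp4 rose by 1.79 and 1.45 and Igfbp5 fell by 1.81 on the log2 scale.

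Gene families taken by name after the values were seen also differed. Ribosomal protein genes with their pseudogenes fell in 55 of 129 tested rows and rose in 1 (median -0.83, after pan-endothelial scaling -1.97), and histone genes fell in 20 of 21 tested (median -1.93, scaled -2.65). Plexins, receptors of guidance signals, rose in 5 of 6 tested (median 1.0, scaled -0.06), the GTPases of the Gimap family in 7 of 8 (median 0.89, scaled -0.26) and Hox genes in 8 of 13 tested (median 0.79, scaled -0.18). After scaling the medians of these 3 families were negative, though above the -0.97 of all genes.

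Skeletal muscle transcripts marked single libraries. Acta1, skeletal muscle actin, was at 128, 2835 and 1.99 FPKM in irradiated bone EC, against 0, 797 and 0.385 FPKM in bone EC, and Ckm, muscle creatine kinase, at 74.5, 1679 and 1.1 FPKM in irradiated bone EC, against 0, 463 and 0.779 FPKM in bone EC. Ighg3, an immunoglobulin heavy chain, was at 83, 23.8 and 120 FPKM in irradiated bone EC, against 0, 0.33 and 28.9 FPKM in bone EC. Its groups overlapped, and its call (adjusted p = 0.034) was lost under 6 alternatives.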
